A study of Mus musculus with 6 samples.

Results

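Csn2 and 8 other genes known as targets of the transcription factor STAT5 were followed across 6 arrays of cultured mouse marrow cells in which Rad21, which belongs to the cohesin ring, was targeted by shRNAs. The 9 genes were taken by name (Csn2, Cish, Socs1, Socs2, Socs3, Pim1, Pim2, Bcl2l1 and Il2ra) from the 12393 genes on the array, with every probe set annotated to exactly 1 of them, which gave 18 of 20380 probe sets. All 9 were measured, 6 of them by 2 or more probe sets, and none was removed for low intensity. They were chosen by their known place downstream of STAT5 and, for Csn2, by its measured difference between the shRNA and empty-vector arrays, so differences of the 9 genes from the control are given below as a description, with no p for any of them. The number of them that passed in the fit of all genes is set beside the share of all genes, and nothing is read from it.

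The cells came from C57/BL6 animals of 6 to 8 weeks whose marrow had been lineage-depleted, and all groups went through the same steps: infection with lentivirus over 24 h, overnight selection in puromycin (1 µg/mL), sorting of live cells, and plating at 10000 cells per mL in methylcellulose with cytokines that the labels do not name. RNA was taken after 7 days. The lentivirus carried no shRNA (empty vector), Rad21 shRNA1 or Rad21 shRNA2, with 2 Affymetrix arrays for each of the 3 groups. The control was an empty vector, so no group carried an unrelated shRNA. Whether replicates were separate animals or cultures is not stated, so standard errors and p-values reflect the spread of these arrays alone, which may be technical.

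Rad21 itself, on its brightest probe set, read 11.14 and 10.49 (log2 intensity) on the empty-vector arrays, 9.63 and 9.14 with shRNA1, and 9.50 and 9.11 with shRNA2. Every shRNA array lay below both controls on this probe set and on another. The differences over both shRNAs were -1.47 ± 0.26 (standard error of the limma fit) and -1.78. Rad21 did not pass in the limma fit of all genes (adjusted p 0.0558 over both shRNAs, 0.19 with shRNA1 and 0.0644 with shRNA2). The dimmest of its 3 probe sets overlapped, with 6.64 and 7.13 on the controls, 6.86 and 6.19 with shRNA1, and 6.68 and 6.10 with shRNA2. On the brightest, the difference between shRNA1 and shRNA2 was 0.08 ± 0.30 (standard error of the limma fit; 95% interval -0.65 to 0.81). Empty-vector replicate 1 stood apart in RNA quality: its Gapdh 3′ control probe set exceeded the 5′ one by 2.42 log2 units, against -0.078 to 0.017 on the other 5 arrays.

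STAT5A and STAT5B are latent transcription factors that sit downstream of cytokine receptors. Ligand binding activates receptor-bound JAK kinases, which phosphorylate STAT5, and the STAT5 dimer then enters the nucleus and binds the palindrome TTCNNNGAA. In blood-forming cells this pathway serves interleukin-3, GM-CSF, erythropoietin and thrombopoietin, and in the mammary gland it serves prolactin. Its targets include feedback inhibitors of the receptor (Cish and the Socs genes), survival and growth genes (Pim1, Pim2 and Bcl2l1), the interleukin-2 receptor alpha chain (Il2ra), and Csn2, the milk protein beta-casein.

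Promoter sequence is shown for Csn2, Cish and Socs3 because these are the members whose window held the palindrome. RefSeq promoter windows (assembly GRCm38.p6, 250 bases before to 50 after an annotated start) matched 8 of the 9 genes, with 11 windows in all. The windows were searched for TTCNNNGAA and for a wider-spaced form with 4 bases in place of 3 between TTC and GAA. Each motif is its own reverse complement, so 1 search covers both strands, and no match of one overlapped a match of the other. Sequences run 5′ to 3′ on the gene's strand, with matches in capitals. The Csn2 stretch covers the 250 bases before the start (chr5:87699426-87699675, minus strand), the Cish stretch runs from 50 bases before the start to base 20 after it (chr9:107296609-107296678, plus strand), and the Socs3 stretch from position -170 to -121 (chr11:117969487-117969536, minus strand).
Csn2: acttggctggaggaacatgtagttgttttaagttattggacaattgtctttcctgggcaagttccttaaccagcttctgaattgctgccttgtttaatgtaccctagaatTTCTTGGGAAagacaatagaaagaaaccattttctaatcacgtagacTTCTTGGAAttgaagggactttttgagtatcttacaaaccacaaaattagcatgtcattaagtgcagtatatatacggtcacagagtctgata
Cish: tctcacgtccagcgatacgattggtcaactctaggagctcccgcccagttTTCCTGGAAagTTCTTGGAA
Socs3: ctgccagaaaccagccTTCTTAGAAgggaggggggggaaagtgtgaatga

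In Csn2 the palindrome TTCTTGGAA begins at position -93 from the annotated start, and the wider-spaced TTCTTGGGAA at -140. Cish held the palindrome at 2 places, TTCCTGGAA from base 1 and TTCTTGGAA from base 12 after the start, and Socs3 held TTCTTAGAA at -154. In all, 3 of the 11 windows, each of another gene, held TTCNNNGAA, against 8.3% of all 32851 windows. The wider-spaced motif stood in 2 of the 11 windows, 1 of Csn2 and 1 of Bcl2l1 (TTCTTCAGAA at -4), against 6.95% of all windows. The windows of Il2ra, Pim1, Pim2 and Socs1 held neither, which speaks only of these 300 bases. Genes with the palindrome did not share a direction in the array data: Csn2 was far above the control, Cish was below it, and Socs3 overlapped it.

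Csn2 was the member that differed most. Its brighter probe set read 6.66 and 6.13 on the empty-vector arrays, 11.96 and 12.48 with shRNA1, and 10.67 and 10.43 with shRNA2. All 4 shRNA arrays were at least 3 log2 units above both controls, and the 2 shRNA groups did not overlap. The difference from empty vector was 5.83 ± 0.27 with shRNA1 (56.9-fold) and 4.16 ± 0.27 with shRNA2 (17.8-fold), and 4.99 ± 0.23 over both. Among all 12393 genes this was the largest upward difference with shRNA1 and number 6 with shRNA2. The other probe set gave the same picture, with 5.27 and 5.24 on the controls, 11.08 and 11.80 with shRNA1, and 9.57 and 9.24 with shRNA2. Leaving out any 1 array kept the difference over both shRNAs between 4.73 and 5.26.

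Il2ra, the alpha chain that makes the interleukin-2 receptor high-affinity, was the other member that stood above the control. Its brighter probe set read 5.14 and 5.18 with empty vector, 6.89 and 7.38 with shRNA1, and 8.12 and 7.28 with shRNA2. The controls sat just above the dimmest 25% of each array's probe sets, which end at 4.74 to 4.87, and all 4 shRNA arrays were clearly above them. The differences were 1.98 ± 0.32 with shRNA1 and 2.54 ± 0.32 with shRNA2, and 2.26 ± 0.27 over both (4.79-fold). The dimmer probe set went the same way by much less, at 5.08 and 5.05 with empty vector, 5.22 and 5.63 with shRNA1, and 5.47 and 5.63 with shRNA2. With the mean of both probe sets in place of the brighter one, the difference over both shRNAs was 1.34.

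**Figure D1:**
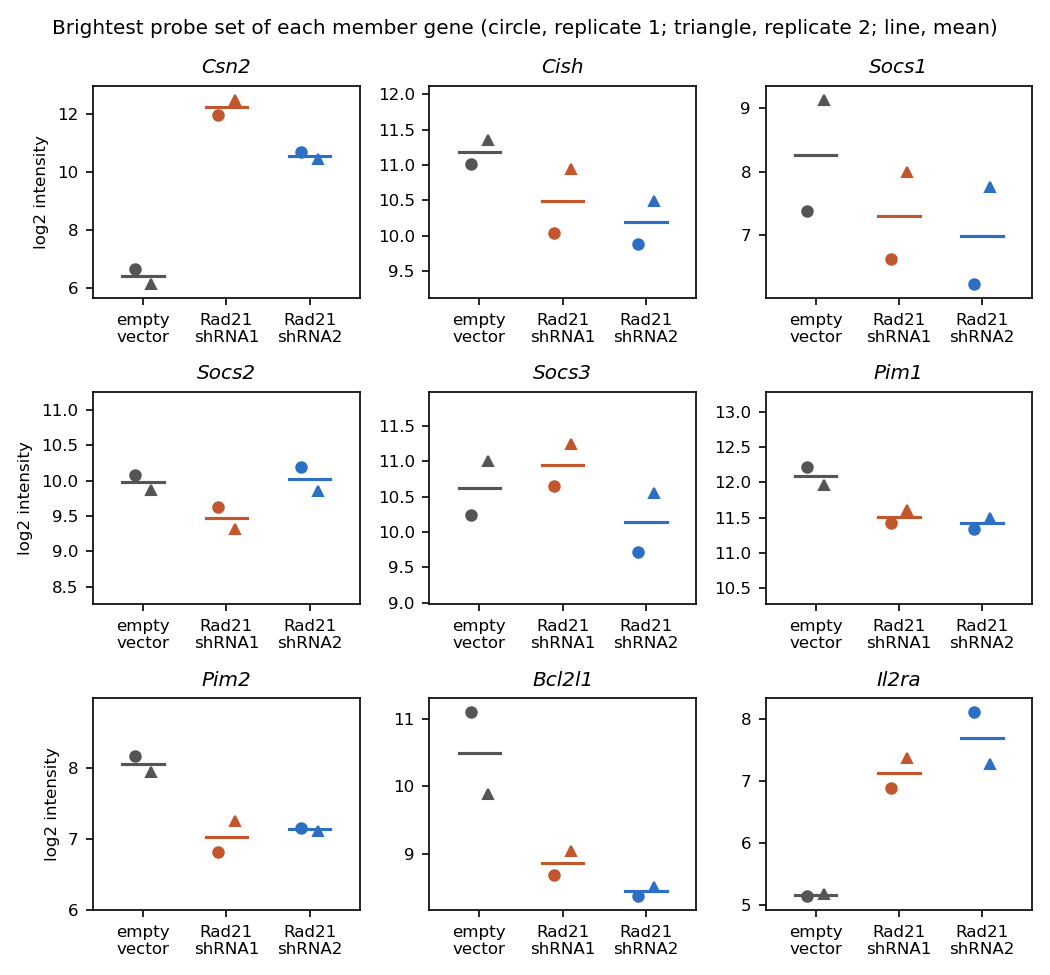
Log2 intensity of the brightest probe set of each of the 9 genes on each array, by group, with replicate 1 as a circle, replicate 2 as a triangle and the group mean as a line; each panel has its own axis range. Csn2 and Il2ra lie higher on all 4 shRNA arrays than on both controls, Cish, Pim1, Pim2 and Bcl2l1 lie lower, and Socs1, Socs2 and Socs3 overlap.

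The feedback inhibitors did not move with Csn2. Cish, an SH2 protein that blocks STAT5 docking sites on cytokine receptors, read 11.02 and 11.35 with empty vector, 10.04 and 10.94 with shRNA1, and 9.89 and 10.49 with shRNA2. All shRNA arrays were below both controls, the nearest by a margin much smaller than the distance between the shRNA replicates. The difference over both shRNAs was -0.85 ± 0.31, or 1.80-fold lower.

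Socs1, which inhibits JAK kinases directly, was the most variable member. It read 7.38 and 9.13 with empty vector, 6.63 and 7.99 with shRNA1, and 6.23 and 7.76 with shRNA2. The groups overlapped, and in each of the 3 groups replicate 2 was the higher array by more than 1 log2 unit. The difference of -1.10 ± 0.69 was -1.98 without empty-vector replicate 1 and -0.23 without empty-vector replicate 2.

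Socs2, a regulator of growth hormone signalling, read 10.08 and 9.87 with empty vector, 9.63 and 9.31 with shRNA1, and 10.20 and 9.86 with shRNA2. Its shRNA2 arrays lay with the controls and its shRNA1 arrays below them, on this and on the other probe set. The differences were -0.51 ± 0.20 with shRNA1 and 0.05 ± 0.20 with shRNA2.

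Socs3, an inhibitor of receptors that use gp130 and of the G-CSF receptor, read 10.24 and 11.00 with empty vector, 10.65 and 11.24 with shRNA1, and 9.72 and 10.55 with shRNA2. All groups overlapped with the controls, and here too replicate 2 was the higher array in each group. The difference over both shRNAs was -0.08 ± 0.34 and changed sign with the array left out (-0.46 to 0.31). The other 2 probe sets of Socs3 differed by -0.13 and 0.15, and the brightest and the next are of the kind (_x_at) whose probes can bind related transcripts.

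The survival genes lay lower with the Rad21 shRNAs than with empty vector, with exceptions between probe sets. Pim1, a kinase that supports survival and growth, read 12.22 and 11.97 with empty vector, 11.42 and 11.61 with shRNA1, and 11.34 and 11.50 with shRNA2. All 4 shRNA arrays were below both controls by this probe set, at -0.63 ± 0.15 over both shRNAs. Its other probe set showed no such order, with 9.73 and 10.62 on the controls, 10.11 and 10.22 with shRNA1, and 10.45 and 10.13 with shRNA2. The mean of both probe sets differed by -0.29.

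Pim2, a related kinase that acts on the same substrates, read 8.17 and 7.95 with empty vector, 6.82 and 7.25 with shRNA1, and 7.16 and 7.12 with shRNA2. The 4 shRNA arrays formed a tight group well below the controls. The difference was -0.98 ± 0.17 (1.97-fold lower).

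Bcl2l1, which encodes the anti-apoptotic protein BCL-XL, read 11.10 and 9.89 with empty vector, 8.68 and 9.04 with shRNA1, and 8.37 and 8.51 with shRNA2. All shRNA arrays were below both controls, but the controls themselves were further apart than any of the shRNA arrays were from each other. The difference was -1.84 ± 0.34, and -1.24 or -2.45 without empty-vector replicate 1 or 2. The other 3 probe sets were dim on every array, at 3.09 to 5.48, and differed by -0.43, -0.09 and 0.08, so the mean of all 4 differed by -0.57. BCL-XL is abundant in maturing red cells. Erythroid markers (7 measured genes) averaged 8.33 on empty-vector replicate 1, against 6.98 on replicate 2 and 6.48 to 6.90 on the shRNA arrays. Empty-vector replicate 1 was the array with the highest Bcl2l1 and the Gapdh gap of 2.42. All 7 were higher on replicate 1 than on replicate 2 of the controls, most of all Slc4a1 (11.71 and 8.14) and Alas2 (9.57 and 7.46). Hba-a1 (4.57 and 3.94) and Epb42 (4.71 and 4.40) were dim. None of the 7 passed by limma (3 at an unadjusted p under 0.05, against 16.7% of all genes). Their part in the Bcl2l1 difference was not tested. In a bulk sample, fewer cells of a type and less RNA per cell cannot be told apart.

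**Figure D2:**
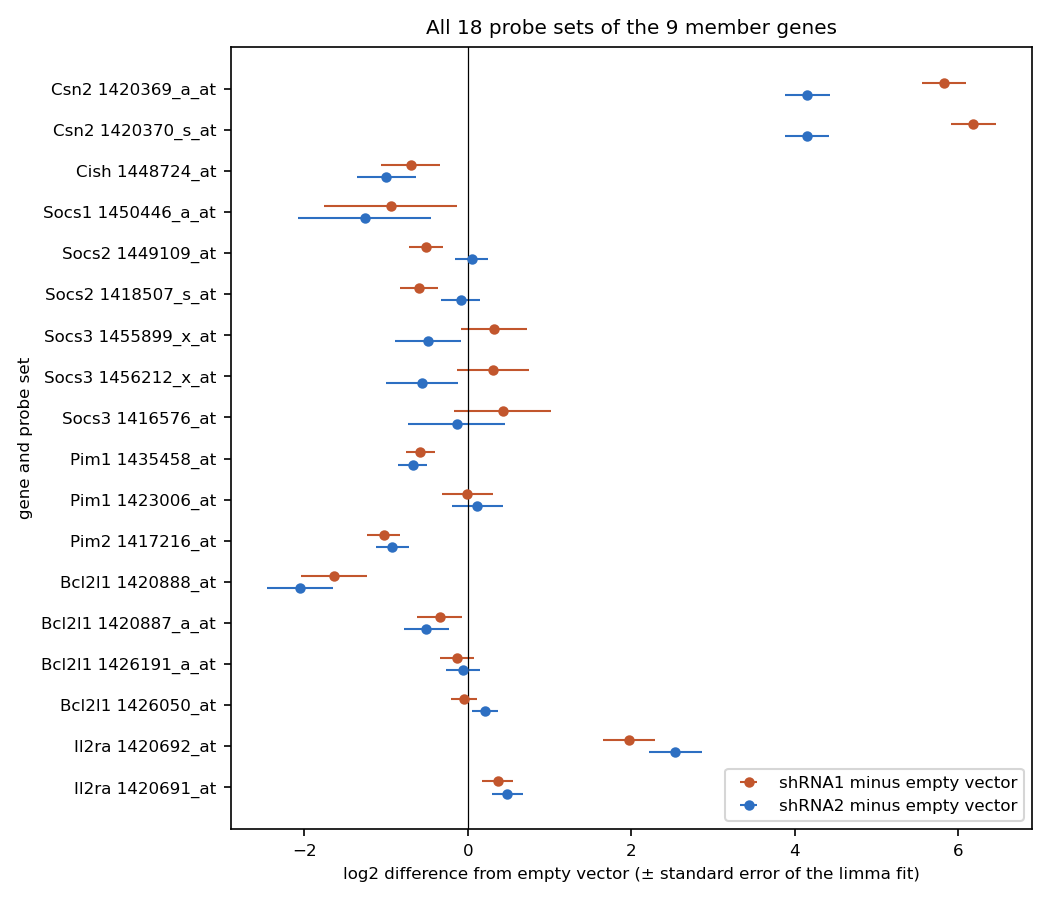
Log2 difference from empty vector for shRNA1 and shRNA2, with the standard error of the limma fit as bars, for all 18 probe sets of the 9 genes. Both Csn2 probe sets stand apart to the right and are further out with shRNA1; single probe sets of Pim1 and Bcl2l1 sit near 0 where the brightest does not.

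Over the 9 genes, 2 were higher and 4 lower on every shRNA array than on both controls, and 3 overlapped. Among all genes, 11.5% were higher and 13.6% lower in this way. Of the 18 probe sets 4 were higher, 4 lower and 10 overlapped, against 11.7% higher and 12.9% lower of all probe sets. In limma, 2 of the 9 passed an adjusted p of 0.05 for both shRNAs against empty vector (Csn2 and Il2ra), where 2.13% of all 12393 genes did. Against empty vector, 1 of the 9 passed with shRNA1 (0.234% of all genes) and 2 with shRNA2 (2.83%). The genes were chosen with this comparison known. With an empty-vector array left out the control is 1 array, so only differences are given for those fits here. Without empty-vector replicate 1 they were -0.497 for Pim1, -0.864 for Pim2 and -1.236 for Bcl2l1. Without replicate 2, which leaves the array with the Gapdh gap as the only control, they were -0.755, -1.086 and -2.448. Without shRNA1 replicate 1, shRNA1 replicate 2 or shRNA2 replicate 1, 1 of the 9 passed (Csn2). In these fits 17, 93 and 3 of all genes passed, and nothing is read from the count of the 9. The median difference of the 9 was -0.63, against -0.02 over all genes. That median is the value of the brightest Pim1 probe set, and the other Pim1 probe set differed by 0.06. It describes genes chosen with this comparison known, and nothing is read from it.

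Whether the 2 shRNAs had equal effects is not the comparison by which the genes were chosen. The choice was made with earlier results of these data known, so the p-values of this comparison may not be independent of the choice. Csn2 was higher with shRNA1 than with shRNA2 by 1.67 ± 0.27 (3.19-fold, 95% interval 1.02 to 2.33), and by 2.03 ± 0.27 on its other probe set. The unadjusted p of the brighter probe set was 0.00082, but after adjustment over all 12393 genes it did not pass (limma adjusted p = 0.29, range 0.0577 to 1.0 over all alternatives). No gene passed in this contrast by limma (0%), while 606 genes (4.89%) and 2 of the 9 members had an unadjusted p under 0.05. With empty-vector replicate 1 or 2 left out, 44 genes passed and Csn2 did not, at an adjusted p of 0.0577 in either case. Rad21 itself, as given above, differed between the shRNAs by 0.08.

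Socs2 differed in the other direction, by -0.56 ± 0.20 (unadjusted p = 0.0333, limma adjusted p = 0.91), with all shRNA2 arrays above all shRNA1 arrays. Socs3 differed by 0.81 ± 0.40 (95% interval -0.16 to 1.78) and Il2ra by -0.57 ± 0.32 (95% interval -1.34 to 0.21). For Pim1 the interval was -0.33 to 0.52 and for Pim2 -0.60 to 0.38, the narrowest among the members. The intervals of Cish (-0.58 to 1.17), Bcl2l1 (-0.55 to 1.39) and Socs1 (-1.63 to 2.27) were too wide to tell. The 2 shRNA groups did not overlap in 4 of the 9 genes (Csn2, Socs2, Socs3 and Bcl2l1), against 41.6% of all genes.

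Csn2 lies in the casein cluster of chromosome 5, and cohesin holds the ends of chromatin loops, so its neighbours are given beside it. The nearest measured genes on either side, the milk protein genes Csn1s1 and Csn1s2a, read 4.98 and 4.55 and 4.06 and 4.29 on the empty-vector arrays, both dim. With shRNA1 Csn1s1 read 4.76 and 4.92, and with shRNA2 4.43 and 4.58, a difference over both of -0.09 ± 0.17. Csn1s2a read 4.77 and 4.81 with shRNA1 and 4.57 and 4.46 with shRNA2, slightly above the controls (0.48 ± 0.14, limma adjusted p = 0.17). Without empty-vector replicate 2, which leaves the array with the Gapdh gap as the only control, its difference was 0.59. Csn1s2b, the next gene, differed by 0.78 ± 0.32 (limma adjusted p = 0.31), mostly through 1 array: it read 3.68 and 3.51 with empty vector, 3.93 and 4.14 with shRNA1, and 5.31 and 4.14 with shRNA2.

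None of the 20 neighbours, 10 on each side in the order of the RefSeq gene table, passed by limma. An unadjusted p under 0.05 was reached by 1 of the 20 neighbours, against 16.7% of all genes. Their differences ran from -0.28 to 0.78 with a median of 0.03. Nearly all of them were dim on every array. The difference of 4.99 at Csn2 had no counterpart of like size in the genes measured around it.

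**Figure D3:**
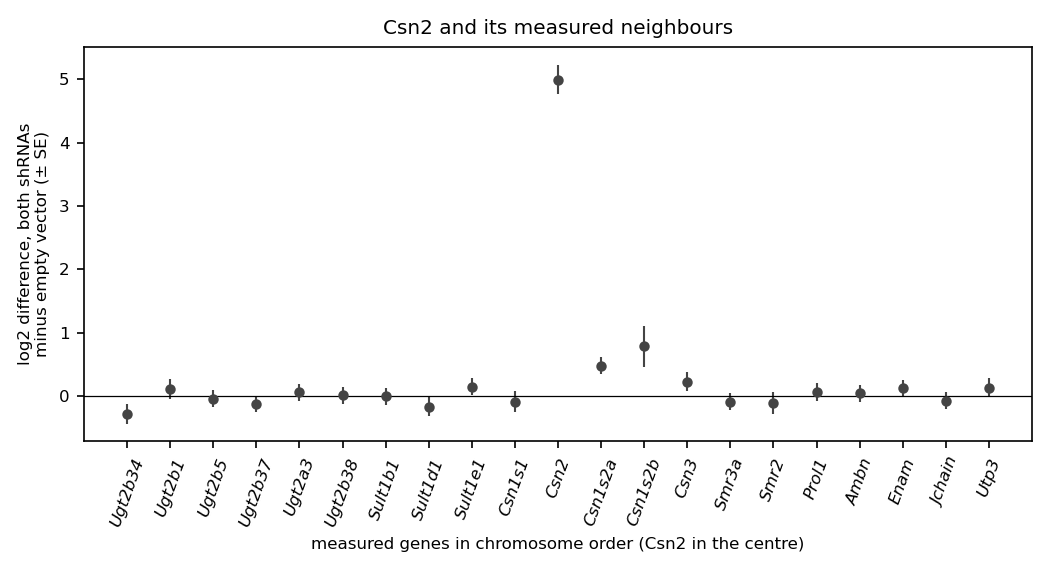
Log2 difference of both shRNAs from empty vector (points, with the standard error of the limma fit) for Csn2 and the 10 measured genes on each side, in chromosome order and not to distance. Csn2 stands at 4.99, and the 20 neighbours lie between -0.28 and 0.78.

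No other milk gene passed. Of 10 measured milk genes (the casein neighbours above, Wap, Lalba, Glycam1, Btn1a1, Xdh, Elf5), none passed by limma. Of the 10, 1 had an unadjusted p under 0.05, against 16.7% of all genes. The median difference was 0.09, with 7 differences positive. Csn1s2a, Csn1s2b and Csn3 were higher on all 4 shRNA arrays than on both controls, as were 11.5% of all genes. Csn3, which encodes kappa-casein, read 3.76 and 3.87 with empty vector, 3.92 and 4.08 with shRNA1, and 3.94 and 4.23 with shRNA2 (0.22 ± 0.15). Epithelial markers, among them keratins and Epcam, averaged 5.81 and 5.61 on the empty-vector arrays and 5.04 to 5.60 on the shRNA arrays. Their mean difference was -0.38 but their median 0.01, with 5 positive and 5 negative, so the lower mean rested on 1 gene. Of these 10 markers 1 fell and none rose: Cdh1, or E-cadherin, differed by -3.86, and it missed the threshold without either shRNA1 array or shRNA2 replicate 1.

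The 84 other genes of the pathway that were listed, in 6 lists, had 74 measured. In the contrast of both shRNAs with empty vector 3 of them fell and none rose, where 1.4% of all genes fell and 0.734% rose. An unadjusted p under 0.05 was reached by 22 of the 74, against 16.7% of all genes. The number that passed was larger without either empty-vector array and smaller without any 1 shRNA array, as was the number over all genes. With an array left out, the differences of the 3 that fell ran from -2.056 to -1.849 for Ccnd1, -2.287 to -1.855 for Il6st and -1.787 to -1.427 for Kit. The median difference of the 74 was -0.04.

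Among cytokine receptors 2 of 18 fell over both shRNAs. Kit, the stem cell factor receptor, read 11.00 and 11.10 with empty vector, 8.93 and 9.65 with shRNA1, and 9.37 and 9.82 with shRNA2 (-1.61 ± 0.25, limma adjusted p = 0.0412, range 0.0209 to 0.182). Il6st, or gp130, the shared signal chain of the interleukin-6 family, read 9.39 and 9.54 with empty vector, 7.96 and 8.82 with shRNA1, and 6.02 and 6.79 with shRNA2 (-2.07 ± 0.32, limma adjusted p = 0.0412, range 0.0167 to 0.154). Both missed the threshold without any 1 of the shRNA arrays and with quantile normalization, and Kit also when the dimmer 50% of genes were left out. Another Il6st probe set was dim and differed by 0.00, and the mean of its 3 probe sets differed by -0.88 (adjusted p = 0.13). With shRNA1 alone 0 of the 18 passed (0.234% of all genes), and with shRNA2 alone 1 did (2.83%), namely Il6st. Il6st differed by -1.08 with shRNA1 and -3.06 with shRNA2. Kit differed by -1.76 and -1.45 and passed with neither alone (limma adjusted p 0.11 and 0.0644). Over both shRNAs the median of the 18 receptors was -0.02.

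No JAK or STAT gene passed by limma among 10 measured (1 reached an unadjusted p under 0.05), and their median was -0.07. Stat2, which serves interferon signalling, differed by -0.49 ± 0.14 (limma adjusted p = 0.17) and Stat5b by -0.31 ± 0.17 (0.45). Stat5a and Jak2 are added for their place in the pathway, with their values already seen. Stat5a read 8.38 and 8.31 with empty vector, 8.20 and 8.42 with shRNA1, and 8.45 and 8.39 with shRNA2 (0.02 ± 0.13, 95% interval -0.31 to 0.35). Jak2 differed by -0.31 ± 0.24. These are RNA levels and carry no information on STAT5 phosphorylation.

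Of 15 other inhibitors of the pathway none passed by limma, and 5 reached an unadjusted p under 0.05. The phosphatase gene Ptpn6 (SHP-1) read 9.19 and 10.03 with empty vector and 10.63 to 10.87 with the shRNAs (1.14 ± 0.25, limma adjusted p = 0.0966). Socs5 read 8.54 and 8.67 with empty vector and 7.07 to 8.05 with the shRNAs (-1.05 ± 0.31, limma adjusted p = 0.18).

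Among 13 other genes described as STAT5 targets 1 fell. Ccnd1, or cyclin D1, which drives entry into the cell cycle, read 8.30 and 8.27 with empty vector, 6.24 and 6.65 with shRNA1, and 6.31 and 6.13 with shRNA2 (-1.95 ± 0.17, limma adjusted p = 0.0109). Its other 2 probe sets differed by -1.61 and -2.87. The adjusted p of Ccnd1 was 0.0564, 0.0655 and 0.0699 without shRNA1 replicate 1, shRNA2 replicate 1 and shRNA2 replicate 2. The median of this list was -0.34, with 4 positive and 9 negative differences. Of 8 further BCL2 family genes none passed by limma (3 at an unadjusted p under 0.05). The 2 with the smallest p were Bcl2 (-0.67 ± 0.14, limma adjusted p = 0.0859) and the pro-apoptotic Bcl2l11, or BIM (-0.60 ± 0.19, 0.19). Bcl2l11 was lower mainly with shRNA2, at -1.09, against -0.12 with shRNA1, whose arrays overlapped the controls.

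**Figure D4:**
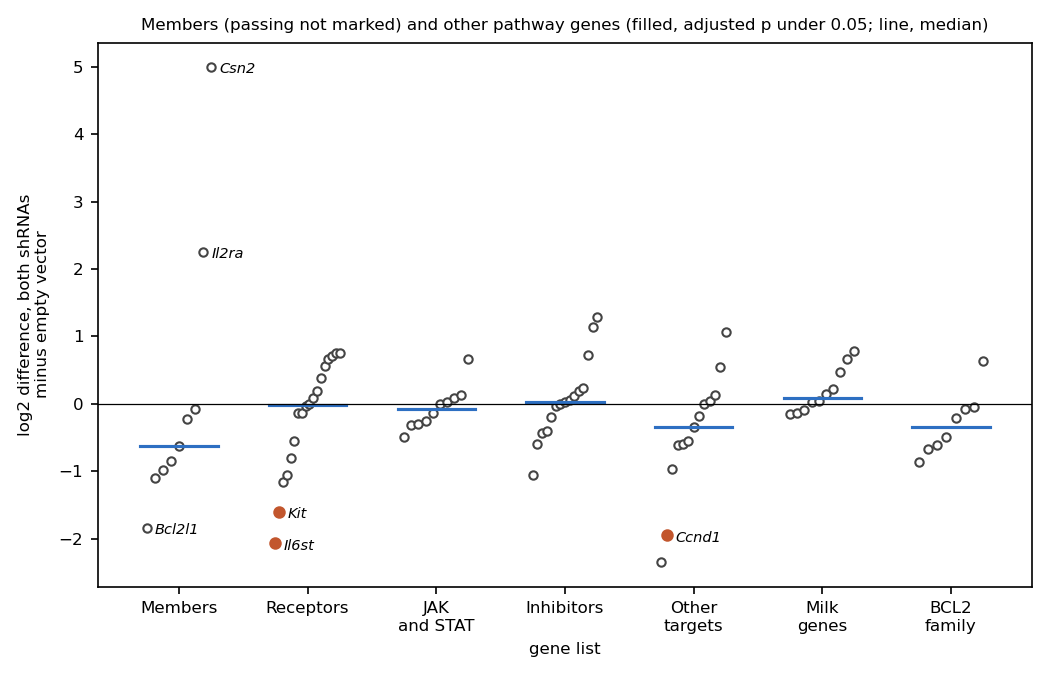
Log2 difference of both shRNAs from empty vector for the 9 genes and for each measured gene of 6 other pathway lists; filled points passed an adjusted p of 0.05, open points did not, passing is not marked for the 9 members, and lines mark list medians. Csn2 and Il2ra lie above every point of the other lists, and the filled points are Kit, Il6st and Ccnd1, all below 0.

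The genes most like Csn2 over the 6 arrays, by the smallest root mean square difference after each gene was centred on its mean, were Ambp (1.05 log2 units), Tal2 (1.08), Dmkn (1.22), Ifitm6 (1.25) and the neutrophil granule protease gene Elane (1.31). No gene came closer than about 1 log2 unit. Elane read 5.76 and 5.78 with empty vector, 10.31 and 9.81 with shRNA1, and 11.20 and 11.68 with shRNA2, so that it was higher with shRNA2 where Csn2 was higher with shRNA1. Ambp read 5.80 and 5.07 with empty vector and 8.68 to 9.93 with the shRNAs.

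Markers of several cell types moved between the groups. For both shRNAs against empty vector, 0.734% of all genes rose and 1.4% fell by limma, and 16.7% had an unadjusted p under 0.05. Neutrophil markers, which average 10 genes from Mpo to Mmp8, read 9.36 and 8.44 with empty vector and 11.51 to 12.31 with the shRNAs, and 6 of the 10 rose and none fell. The number that rose was larger without either empty-vector array and smaller without any 1 shRNA array, as was the number passing over all genes. Mast cell and basophil markers read 11.33 and 11.97 with empty vector and 10.31 to 10.97 with the shRNAs, and 2 of 10 fell (Fcer1a and Kit, which is also among the receptors above), none of them without any 1 of the shRNA arrays. Megakaryocyte markers (6 of 7 measured) read 10.82 and 10.74 with empty vector and 9.32 to 10.32 with the shRNAs. None of the 6 passed by limma (4 at an unadjusted p under 0.05). The part of these cell types in the values of the 9 genes was not tested. T cell markers, which bear on Il2ra, averaged 5.53 and 5.44 with empty vector and 5.37 to 5.53 with the shRNAs, and none of 9 passed by limma (2 at an unadjusted p under 0.05). Macrophage markers averaged 9.05 and 9.49 with empty vector, 9.26 and 9.35 with shRNA1, and 8.37 and 8.40 with shRNA2. Of the 9 macrophage markers 1 fell over both shRNAs (the scavenger receptor gene Marco, -2.09 ± 0.32, limma adjusted p = 0.0412). Marco missed the threshold when any 1 shRNA array was left out. More of the 9 passed when either empty-vector array was left out, in both directions without replicate 2, as did more of all genes. With shRNA2 alone 3 of the 9 fell, where 2.83% of all genes passed.

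**Figure D5:**
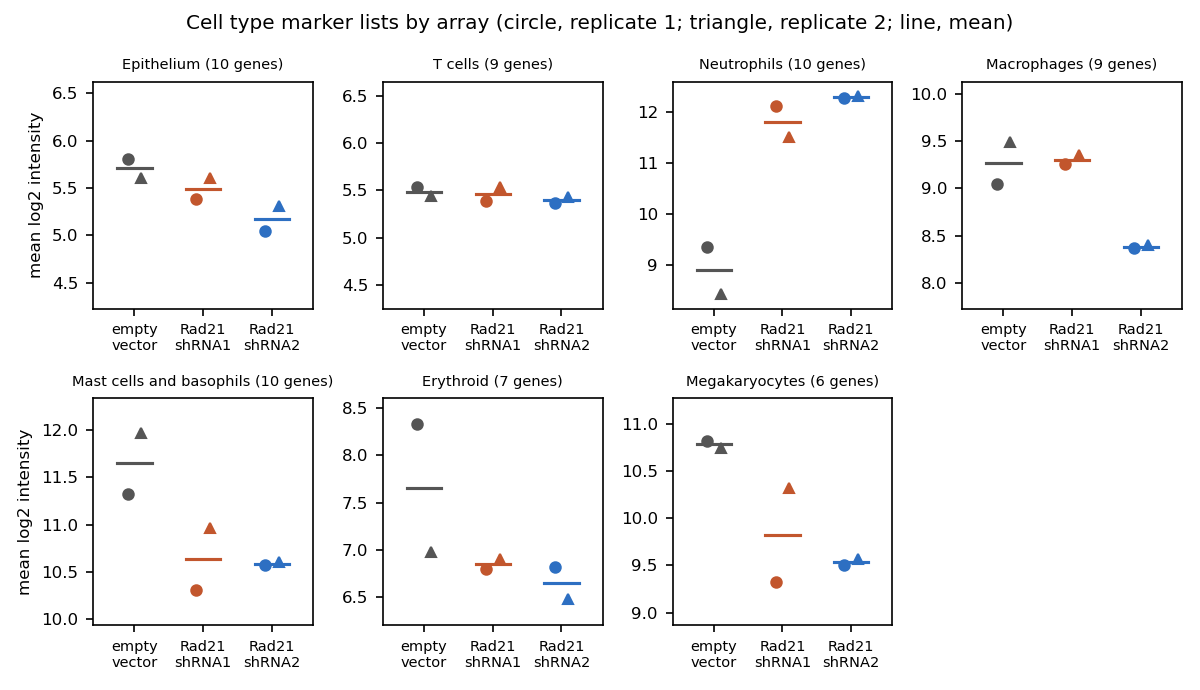
Mean log2 intensity of each cell type marker list on each array, by group, with replicate 1 as a circle, replicate 2 as a triangle and the group mean as a line; each panel has its own axis range. Neutrophil markers lie higher on all shRNA arrays (11.51 to 12.31) than on the controls (9.36 and 8.44), T cell markers overlap, and the erythroid markers stand out on empty-vector replicate 1 at 8.33.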

How the data were processed

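The deposited table holds 1 intensity for each of 22690 probe sets on 6 arrays, made by the authors with RMA (background correction, quantile normalization and probe set summary), per the submitters' processing notes; the version is not given in the sources used here. Values ran from 4.96 to 20614.6 with array medians of 100.2 to 104.9, so log2 was taken, with no pseudocount. Of 20393 probe sets with 1 gene in the platform annotation, 20380 remained after control probe sets were left out, and each gene was represented by its brightest probe set. Differences were fitted with limma 3.58.1 (R 4.3.3; lmFit and eBayes) over all 6 arrays and 12393 genes, two-sided, with Benjamini-Hochberg adjustment and a threshold of 0.05, and the script was tested on simulated data. Single probe sets come from a fit of all 20380, and a range of adjusted p covers all alternatives of that result. Members and lists were chosen with earlier results of these data known. From each pathway list the text names up to 4 passing genes, otherwise the 2 with the smallest p; from the Csn2 neighbours also the nearest gene on each side; and the 5 genes most like Csn2. Markers, Csn3, Stat5a and Jak2 were named after their values were seen. The precision is limited by 2 arrays per group.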

Additional observations from a re-analysis of the deposited data

Results flagged for a closer look

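The mean of Socs3 lay on opposite sides of the control mean with the 2 shRNAs. On its brightest probe set both shRNA1 arrays (10.65 and 11.24) lay above the empty-vector mean of 10.62 and both shRNA2 arrays (9.72 and 10.55) below it. The controls themselves read 10.24 and 11.00. On the other 2 probe sets the shRNA means also lay on opposite sides of the control mean, but not every array did. Their differences were 0.31 and 0.43 with shRNA1, and -0.56 and -0.13 with shRNA2. On the next brightest, 1 shRNA1 array read 10.03 against a control mean of 10.07, and on the dimmest 1 shRNA2 array read 8.76 against 8.50. The difference between the shRNAs on the brightest was 0.81 ± 0.40 (limma adjusted p = 0.9994, 95% interval -0.16 to 1.78), which did not exceed the spread between arrays.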

How the results depend on the processing

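The empty-vector arrays, 1 of them with the Gapdh gap, limit every comparison with the control. With an array left out, the number of genes past the threshold ran from 3 to 3121 for both shRNAs (264 with all arrays), from 0 to 2534 for shRNA1 (29), from 0 to 2941 for shRNA2 (351) and from 0 to 44 between the shRNAs (0). Among the 9 genes it ran from 1 to 5, among the pathway lists from 0 to 28 and among the Csn2 neighbours from 0 to 1 (Csn1s2a); between the shRNAs it was 0 of the 9 throughout. Leaving out the dimmer 50% of genes gave 113, 3 and 180 genes for both shRNAs, shRNA1 and shRNA2, 1 of the 9 genes and 1 pathway gene. Il2ra and Ccnd1 are themselves left out there, and Kit missed the threshold (limma adjusted p = 0.051). Quantile normalization gave 1 pathway gene. For shRNA1, median centring gave 47 and an intensity trend 59 genes. The causes were not tested. Signs reversed for small differences between the shRNAs: with an array left out Cish ran from -0.153 to 0.744 (-0.002 without shRNA2 replicate 1), Socs1 from -0.445 to 1.079 (-0.36 without shRNA1 replicate 2), Pim1 from -0.001 to 0.193 (-0.015 with the mean of its probe sets), Pim2 from -0.325 to 0.107 and Kit from -0.668 to 0.051. Socs3 against empty vector ran from -0.464 to 0.305 (0.068 and 0.126 without shRNA1 and shRNA2 replicate 1). With the replicate number as a block, 288, 23 and 449 genes passed for both shRNAs, shRNA1 and shRNA2 and 0 between them, and 3 of the 9 genes, Socs1 being added at -1.10 with a standard error of 0.15 in place of 0.69; same-numbered arrays deviated together over genes (r = 0.20, 0.15 and 0.58 between groups), but the labels give the numbers no meaning, so the pairing was not used.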
